A study of Homo sapiens with 6 samples.

Results

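The tubulin genes described here are 10 genes for alpha and beta tubulin, 4 for alpha (TUBA1A, TUBA1B, TUBA1C and TUBA4A) and 6 for beta (TUBB, TUBB2A, TUBB2B, TUBB3, TUBB4B and TUBB6). They were taken by name, and the transcripts in the files were assigned to them by matching transcript identifiers without version to the GENCODE 44 annotation of hg38. All 10 were found among 35810 genes with a matched transcript, and all 10 were among the 13737 genes with enough reads to be tested. The RNA came from SPT5-AID cells, a derivative of the colorectal adenocarcinoma line DLD-1 whose SPT5, a transcription elongation factor, is fused to an auxin-inducible degron. Both groups carry this allele. Cells were infected with a GIPZ lentivirus that encodes an shRNA against ARMC5 (shARMC5, n = 3) or a nontargeting shRNA (shNT, n = 3) and selected with puromycin. The labels name no auxin for these 6 libraries. ARMC5 is an adaptor of the CUL3 ubiquitin ligase, and the study's methods list more than 1 shRNA construct against it without saying which gave these libraries, so a construct cannot be set beside another here. The comparison asks how the polyadenylated RNA of the cells differed between the knockdown and the control. The study describes its N as biological replicates, but nothing says which cultures or infections the numbered libraries came from, so the p-values measure the spread between these libraries.

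Alpha and beta tubulin form the heterodimer from which microtubules are built. The genes of each family encode closely similar proteins that differ most in their acidic C-terminal tails, where many modifications are placed and motors and other proteins bind. Cells also hold the amount of tubulin in check through its own mRNA. When free dimers are in excess, TTC5 recognises the first residues of a tubulin chain as it leaves the ribosome and, through SCAPER, brings the CCR4-NOT deadenylase to the mRNA being translated. The coding sequence at its start and at its end is therefore what the members share and what sets them apart.

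The first 30 coding bases are shown for the 8 distinct forms among the members, since the capitals mark the 4 codons that TTC5 reads on the nascent chain. These codons give methionine, arginine, glutamate and cysteine in all 4 alpha genes and methionine, arginine, glutamate and isoleucine in all 6 beta genes. All are read 5′ to 3′ in the sense of the gene, from the GENCODE 44 transcripts. The line for TUBA1B also stands for TUBA1A and TUBA1C, which have the same 30 bases.
TUBA1B: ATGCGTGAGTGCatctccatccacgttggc
TUBA4A: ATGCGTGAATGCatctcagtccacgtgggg
TUBB: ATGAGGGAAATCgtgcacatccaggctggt
TUBB2A: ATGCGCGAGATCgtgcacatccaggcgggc
TUBB2B: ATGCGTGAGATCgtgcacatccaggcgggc
TUBB3: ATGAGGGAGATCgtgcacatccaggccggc
TUBB4B: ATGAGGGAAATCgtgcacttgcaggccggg
TUBB6: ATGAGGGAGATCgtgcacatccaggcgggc
In the alpha genes an intron divides these bases, and they lie within chr12:49129696-49131300 (minus strand) for TUBA1B and chr2:219252204-219253858 (minus strand) for TUBA4A. In the beta genes they are unbroken, at chr6:30720507-30720536 (plus) for TUBB, chr6:3157434-3157463 (minus) for TUBB2A, chr6:3227514-3227543 (minus) for TUBB2B, chr16:89923402-89923431 (plus) for TUBB3, chr9:137241361-137241390 (plus) for TUBB4B and chr18:12308293-12308322 (plus) for TUBB6. The 12 bases in capitals take 5 forms beside the one of TUBA1A, TUBA1B and TUBA1C. TUBB and TUBB4B share a form, TUBB3 and TUBB6 share another, and TUBA4A, TUBB2A and TUBB2B each have their own.

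The last 30 coding bases before the stop codon are shown for 7 members that differ in level or tail, with the glutamate codons GAA and GAG in capitals, since glutamates of the tail are where polyglutamylation is placed.
TUBA1C: gctgacggaGAGgatGAGggtGAAGAGtat
TUBA4A: tcctatGAGgacGAGgatGAGggaGAAGAA
TUBB: gatttcggtGAGGAGgccGAAGAGGAGgcc
TUBB2A: ttcGAGGAGGAGGAGggcGAGgacGAGgct
TUBB3: GAGGAGGAGtcgGAGgcccagggccccaag
TUBB4B: ttcGAGGAGGAGgctGAGGAGGAGgtggcc
TUBB6: tttGAGgatGAGGAAGAGGAGatcgatgga
These ends lie in unbroken coding exons, at chr12:49273195-49273224 for TUBA1C, chr2:219250355-219250384 for TUBA4A, chr6:30724365-30724394 for TUBB, chr6:3153866-3153895 for TUBB2A, chr16:89935772-89935801 for TUBB3, chr9:137243524-137243553 for TUBB4B and chr18:12326098-12326127 for TUBB6. The end of TUBA1C closes with a tyrosine codon, the residue that vasohibins remove and TTL puts back, whereas the end of TUBA4A closes with a glutamate codon. Of the last 10 codons, 4 encode glutamate in TUBA1C and TUBB3, 5 in TUBA4A, TUBB and TUBB6, and 6 in TUBB2A, TUBB2B and TUBB4B.

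The 6 libraries held between 26201112 and 40866478 estimated reads on transcripts, of which 2.96% to 3.04% lay on transcripts without a match in the annotation. Tests were made with the quasi-likelihood F test of edgeR on reads summed per gene, with Benjamini-Hochberg adjustment over all 13737 genes, and those under an adjusted P value of 0.1 are called. By this rule 1064 genes were called, 7.75% of those tested. Of all genes tested, 610 were called higher in shARMC5 cells (4.44%) and 454 lower (3.3%), a balance that turned to 458 higher and 495 lower with library size only, and the biological coefficient of variation was 0.0643. ARMC5 itself (chr16:31458080-31467166) had 23.0, 25.9 and 26.7 CPM (reads per 1000000 on genes with TMM normalization) in the shNT libraries and 10.8, 11.97 and 12.9 CPM in the shARMC5 libraries, a log2 fold change of -1.09 with a standard error of 0.08 (adjusted P = 5.32e-07 from edgeR). Of 11 markers of colorectal epithelium, 7 passed the filter, with 3 called higher and 1 lower, and the markers summed to 9429.6 to 9524 CPM in shARMC5 and 8327 to 8653 CPM in shNT cells. CDX1 was at 0 and KRT20 was not matched. Markers of blood summed to at most 0.033 CPM and those of endothelium, fibroblasts and neurons to at most 1.44 CPM in any library. In bulk RNA, fewer cells of a kind and less RNA per cell cannot be told apart.

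The members spanned a wide range of levels, compared here in TPM, which is per transcript length. TUBA1B, the main alpha tubulin of dividing cells, stood at the top with 2711 ± 68.2 TPM in shNT and 2736 ± 56.3 TPM in shARMC5 cells (SD, n = 3 each). By mean TPM over all libraries it was number 38 of the 13737 genes tested. TUBB, the class I beta tubulin of most tissues, followed with 1321 ± 32.7 TPM in shNT and 1354 ± 15.9 TPM in shARMC5 cells, at rank 117. TUBB4B, the class IVb beta tubulin that is also used in cilia, had 1112 ± 38.7 and 1186 ± 15.5 TPM and rank 135. TUBA1C, another alpha tubulin of proliferating cells, had 879 ± 30.7 and 899.8 ± 53.3 TPM and rank 157. These 4 genes held between 93.4% and 93.7% of the members' TPM in every library.

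Below them came TUBA4A with 203 ± 5.396 TPM in shNT and 195 ± 9.61 TPM in shARMC5 cells. TUBB6, the class V beta tubulin, had 105 ± 4.73 and 122 ± 5.67 TPM, and TUBB3, the class III form known as a marker of neurons that is also found in carcinomas, had 69.5 ± 5.51 and 73.2 ± 3.86 TPM. TUBB2A, a class II form abundant in brain, had 29.9 ± 2.72 and 34.5 ± 1.13 TPM. At the bottom were TUBA1A, the main alpha tubulin of neurons, with 4.16 ± 0.241 and 3.62 ± 0.295 TPM, and TUBB2B, the other class II form, with 2.03 ± 0.177 and 2.37 ± 0.153 TPM. The order of the 10 genes was the same in 6 of 6 libraries, and the ranges of no 2 neighbours in it overlapped. The closest neighbours were TUBB and TUBB4B, with a mean ratio of 1.16 (1.11 to 1.21 across libraries). The widest gap lay between TUBB2A and TUBA1A, with a mean ratio of 8.27 (6.85 to 10.2).

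**Figure D1:**
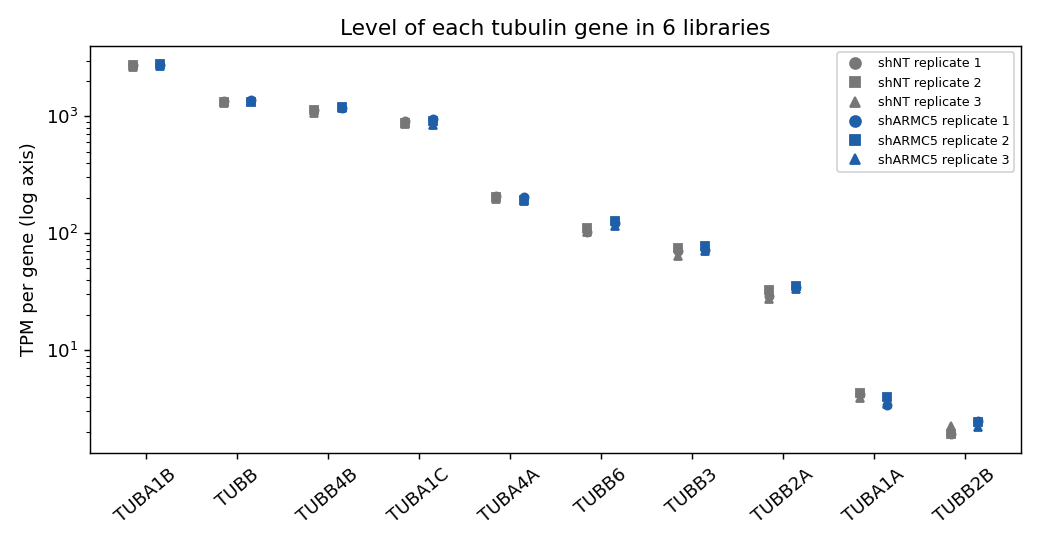
Level of each tubulin gene in TPM on a log axis, 1 point per library, shNT in grey and shARMC5 in blue, with the replicate given by the shape. The 10 genes run from TUBA1B, at 2633 to 2779 TPM, to TUBB2B, at 1.92 to 2.49 TPM, in the same order in every library.

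Between shARMC5 and shNT cells, 3 of the 10 tubulin genes were called, all higher in shARMC5 cells and all beta tubulins: TUBB6, TUBB4B and TUBB2A. No member was called lower by edgeR or by DESeq2. At an unadjusted P value under 0.05, 1 alpha and 4 beta genes were higher and none lower, beside 9.78% of all genes higher and 8.28% lower. The share of all genes called higher was 4.44%, as given above, and the members were not drawn at random. The changes were small, from a log2 fold change of -0.22 to 0.24, with a median of 0.08 over the 10 members beside -0.0014 over all genes tested, while the median absolute change of all called genes was 0.20. The log2 fold change was above 0 for 8 of the 10 members, beside 6795 of the 13737 genes tested. For 8 of the 10 members the CPM of the groups did not overlap, beside 23.4% of all genes tested. In TPM this held for 3 of the 10, the 3 called genes TUBB2A, TUBB4B and TUBB6, beside 16.3% of all genes tested, and the groups of all 4 alpha genes and of TUBB overlapped. The sign of every member's change was the same with TMM factors, DESeq2's size factors and library size only.

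The largest change that passed the test was that of TUBB6 (ENSG00000176014, chr18:12307669-12344320). Its level was 119.6, 133 and 127 CPM in the shNT libraries and 146, 149 and 149 CPM in the shARMC5 libraries. Every shARMC5 library lay above every shNT library. The gene was 16.8% higher in shARMC5 cells, a log2 fold change of 0.22 with a standard error of 0.04 (95% interval 0.15 to 0.30, adjusted P = 0.00149 from edgeR). It was called under all 15 alternative settings, with adjusted P values up to 0.0762.

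TUBB4B (ENSG00000188229, chr9:137241287-137243707) was far more abundant, with a smaller difference. The shNT libraries had 1117, 1150.1 and 1119 CPM and the shARMC5 libraries 1205, 1223 and 1226 CPM, again without overlap. The log2 fold change was 0.11 (standard error 0.03, 95% interval 0.06 to 0.16, adjusted P = 0.0177 from edgeR), which is 7.91% more. The call held under all 15 alternatives, with adjusted P values up to 0.0977.

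For TUBB2A (ENSG00000137267, chr6:3153497-3157544) the counts were 955, 1109 and 829 reads in shNT and 1093, 1439 and 890 reads in shARMC5 libraries, or 29.2, 34.2 and 29.6 CPM against 36.1, 36.5 and 35.3 CPM. The groups did not overlap, and shNT replicate 2 lay closest to the shARMC5 libraries. The log2 fold change was 0.21 (standard error 0.06, 95% interval 0.08 to 0.35, adjusted P = 0.0630 from edgeR). This call was lost with an offset for transcript length in edgeR (adjusted P = 0.285) or in DESeq2 (adjusted P = 0.212), with unmatched transcripts kept as features (adjusted P = 0.199), and on leaving out replicate 1 or 2 of shARMC5 (adjusted P = 0.134 and 0.191) or replicate 1 or 3 of shNT (adjusted P = 0.253 and 0.208). Its log2 fold change stayed between 0.17 and 0.29 throughout.

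The other 3 beta tubulins had values above 0 that did not pass the test. TUBB (ENSG00000196230, chr6:30717435-30725538) had 2258, 2309 and 2297 CPM in shNT and 2398, 2347 and 2429 CPM in shARMC5 libraries. These did not overlap, whereas the TPM of the groups did, and the log2 fold change was 0.06 (standard error 0.02, 95% interval 0.01 to 0.12, adjusted P = 0.169 from edgeR). DESeq2 without a length offset called it (adjusted P = 0.0462). TUBB3 (ENSG00000258947, chr16:89921392-89938761) had 73.0, 80.7 and 71.2 CPM in shNT and 77.4, 83.4 and 77.4 CPM in shARMC5 libraries. Here the groups overlapped through shNT replicate 2, and without that library TUBB3 was called (log2 fold change 0.14, adjusted P = 0.0988 from edgeR), against 0.08 (standard error 0.05, adjusted P = 0.400) with all 6. Its log2 fold change was 0.05 without shARMC5 replicate 2 (adjusted P = 0.751 from edgeR) and without shNT replicate 3 (adjusted P = 0.708). TUBB2B (ENSG00000137285, chr6:3223324-3231730) had 70 to 118 reads per library, 2.29, 2.37 and 2.84 CPM in shNT and 3.07, 2.98 and 2.77 CPM in shARMC5 cells. With so few reads its interval ran from -0.15 to 0.62 around a log2 fold change of 0.24 (adjusted P = 0.537 from edgeR), and a change of the size seen in TUBB6 was not detectable at this depth.

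None of the 4 alpha tubulins was called by edgeR, and TUBA1C was the only alpha gene with an unadjusted P value under 0.05. TUBA1C (ENSG00000167553, chr12:49188736-49274600) had 725, 739.6 and 729 CPM in shNT and 785, 785 and 745 CPM in shARMC5 libraries, without overlap. In TPM the groups overlapped, with 912, 874 and 852 TPM in shNT and 944, 915 and 840.4 TPM in shARMC5 libraries, and the lowest value was that of shARMC5 replicate 3. Its log2 fold change was 0.08 (standard error 0.03, 95% interval 0.02 to 0.14, adjusted P = 0.135 from edgeR), and it was 0.05 with either length offset. DESeq2 without a length offset called TUBA1C (adjusted P = 0.0616), as did edgeR without shARMC5 replicate 3 (adjusted P = 0.0768). TUBA1B (ENSG00000123416, chr12:49127782-49131397) had 2884, 3005 and 2942 CPM in shNT and 3019, 3049 and 3007 CPM in shARMC5 libraries. The groups were next to each other without overlap in CPM and overlapped in TPM, and the 95% interval of its log2 fold change was -0.01 to 0.09 around 0.04 (adjusted P = 0.425 from edgeR). The value was 0.03 without shNT replicate 1 and with library size only.

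The other 2 alpha genes had values below 0. TUBA4A (ENSG00000127824, chr2:219249710-219277902) had 183, 184 and 185 CPM in shNT and 179, 178 and 177 CPM in shARMC5 libraries. The groups did not overlap in CPM (SD 1.13 and 0.815 CPM). In TPM they did, with 208, 203 and 197 TPM in shNT and 206, 191 and 188 TPM in shARMC5 libraries. The log2 fold change was -0.05 (standard error 0.03, 95% interval -0.10 to 0.01, adjusted P = 0.388 from edgeR). TUBA1A (ENSG00000167552, chr12:49184686-49189080) had 101 to 164 reads per library, 4.58, 4.88 and 4.39 CPM in shNT and 3.74, 4.16 and 4.02 CPM in shARMC5 cells. The log2 fold change was -0.22 (standard error 0.14, 95% interval -0.52 to 0.08, adjusted P = 0.446 from edgeR). The median log2 fold change was -0.003 over the alpha genes and 0.16 over the beta genes. The alpha median was 0.004 without shNT replicate 2 and -0.02 with library size only, and the beta median lay between 0.14 and 0.17 under the alternatives.

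**Figure D2:**
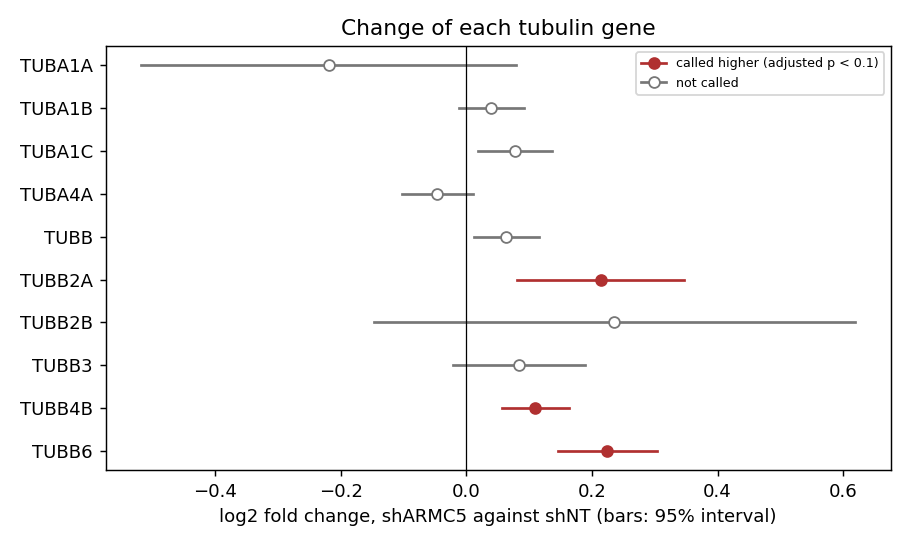
Log2 fold change of each tubulin gene, shARMC5 against shNT, from edgeR's fit over all genes, with 95% intervals. Filled red points are the 3 genes called (TUBB2A, TUBB4B and TUBB6, at 0.21, 0.11 and 0.22), open points were not called, and the widest intervals belong to TUBA1A and TUBB2B, which have the fewest reads.

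Because alpha and beta tubulin work as a pair, their TPM were also summed. The alpha sum was 3884, 3823 and 3686 TPM in shNT and 3909, 3889 and 3704 TPM in shARMC5 libraries. These ranges overlapped, with means of 3798 ± 102 and 3834 ± 113 TPM (SD, n = 3), and the difference turned to -19.3 TPM without shNT replicate 3 and to -1.001 TPM without shARMC5 replicate 1. In CPM the alpha sums also overlapped, and their means differed by 2.99%, against 0.963% in TPM. The beta sum was 2698, 2668 and 2553 TPM in shNT and 2784, 2785 and 2748 TPM in shARMC5 libraries. Here every shARMC5 library lay above every shNT library, and the means, 2640 ± 76.6 and 2772 ± 20.9 TPM, differed by 5.03%. The ratio of alpha to beta TPM was 1.439, 1.433 and 1.444 in shNT and 1.404, 1.397 and 1.348 in shARMC5 libraries, so every shARMC5 library lay below every shNT library, and the means differed by -0.0559, or -3.88%. The lowest ratio, that of shARMC5 replicate 3, carried part of this difference, which was -0.0384 without that library. With CPM in place of TPM the difference in the ratio was -0.0312. The 10 genes together took 0.779% to 0.783% of the reads on genes in shARMC5 and 0.748% to 0.765% in shNT libraries. Their share of all TPM overlapped between the groups, at 0.645% to 0.669% in shARMC5 and 0.624% to 0.658% in shNT libraries.

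Within each family, the share of a gene in the summed TPM does not depend on how a library was scaled, although the shares of a family sum to the whole and so do not move independently. For each of the 10 shares the libraries were compared with a two-sided exact permutation test, whose smallest P value with 3 libraries against 3 is 0.1, so none can pass 0.05. TUBB made up 50.2%, 49.4% and 50.5% of beta tubulin TPM in shNT and 49.2%, 48.1% and 49.2% in shARMC5 libraries, a difference of -1.22 percentage points (exact permutation P = 0.1). TUBB6 had 3.81%, 4.14% and 3.99% in shNT and 4.41%, 4.57% and 4.22% in shARMC5 libraries, 0.419 points more (exact permutation P = 0.1). TUBB4B had a mean share of 42.1% ± 0.269 in shNT and 42.8% ± 0.391 in shARMC5 libraries (SD, n = 3 each), without overlap (exact permutation P = 0.1). The beta mix thus held less of its most abundant form and more of TUBB4B and TUBB6 in every shARMC5 library than in any shNT library. TUBB2A, at 1.13% and 1.24%, and TUBB2B, at 0.0769% and 0.0856%, overlapped between the groups (exact permutation P = 0.2 for each). The difference of TUBB2B, 0.00867 points, was 0.00577 without shNT replicate 1, 0.0139 without shNT replicate 3 and 0.0318 with protein-coding transcripts only. In that last setting TUBB2B stood at 0 in shARMC5 replicate 1 and shNT replicates 1 and 3, where all its reads were on a transcript without a defined coding sequence. The value 0.0318 therefore does not measure a larger shift of the gene. The share of TUBB3 was 2.63% in shNT and 2.64% in shARMC5 cells (exact permutation P = 1.0), and this small difference changed sign with CPM in place of TPM and without shARMC5 replicate 2, shNT replicate 1 or shNT replicate 3 (lowest value -0.0655 points).

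In the alpha mix TUBA1B made up 71.4% in both groups (exact permutation P = 1.0) and TUBA1C 23.2% in shNT and 23.5% in shARMC5 cells (exact permutation P = 0.6). Both differences changed sign without shARMC5 replicate 1 (0.405 and -0.0405 points), and that of TUBA1B also without shNT replicate 2 (0.126 points). TUBA4A held 5.36%, 5.32% and 5.36% of alpha TPM in shNT and 5.27%, 4.91% and 5.08% in shARMC5 libraries (exact permutation P = 0.1), with a difference of -0.173 points without shARMC5 replicate 2. When only protein-coding transcripts were summed, its difference shrank from -0.262 to -0.0224 percentage points (exact permutation P = 0.8). TUBA1A held 0.110% and 0.0944% (exact permutation P = 0.1).

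**Figure D3:**
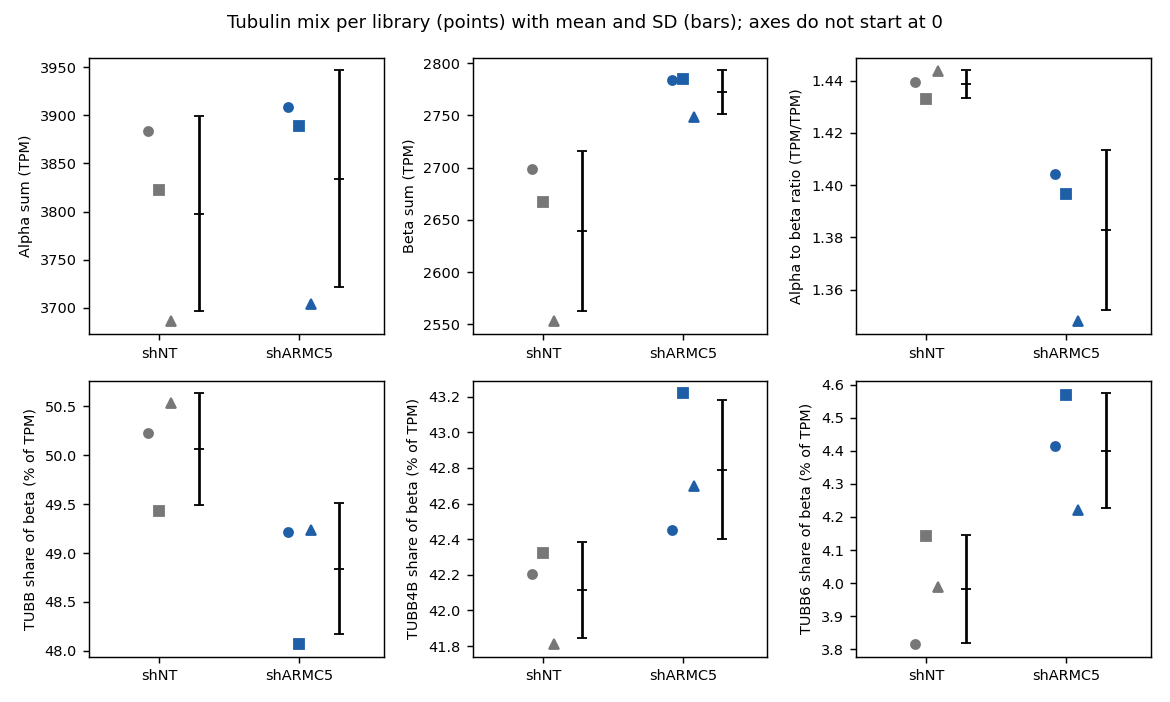
Sums, ratio and 3 shares of the tubulin mix, computed from TPM, 1 point per library with the mean and SD beside each group, on axes that do not start at 0. The alpha sums overlap between the groups, while the beta sum, the ratio of alpha to beta and the shares of TUBB, TUBB4B and TUBB6 do not.

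How well reads can be told apart differs between members. Over the coding sequence, TUBA1A, TUBA1B and TUBA1C are 96.3% to 97.3% identical to each other and TUBA4A 85.0% to 86.2% identical to them. TUBB2A and TUBB2B are 98.2% identical, and the other pairs of beta genes 81.3% to 88.8%. Of all stretches of 31 bases in the transcript with the most reads, in its GENCODE 44 sequence, the share also found in another gene's transcripts was 6.76% for TUBB6, 12.6% for TUBA4A and 20.7% for TUBB4B. It was 33.5% for TUBB, mostly through the pseudogene TUBBP1. It was higher for TUBB2B (56.3%), TUBA1C (57.5%), TUBA1A (59.3%), TUBB2A (69.0%) and TUBA1B (72.2%), which share most of these stretches with other members. TUBB3 had the highest value, 94.0%, because of an overlapping readthrough gene (ENSG00000198211) that was given 0 reads in all 6 libraries. TUBB6 and TUBB4B, whose calls held under all 15 alternatives, are among the 3 members with the fewest shared stretches, although the files list the transcript of TUBB6 with 2064 bases and GENCODE 44 with 1879. Reads that fit both TUBB2A and TUBB2B, or several of TUBA1A, TUBA1B and TUBA1C, were divided by the authors' software, and the values of these genes are less certain.

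Tubulin pseudogenes took few reads. Of 49 in the files 20 had any, and together they held 35 to 69 reads per library, at most 0.0328% of the reads of the 10 members. TUBBP1 had the most, 10 to 32 per library, followed by TUBA5P (13 to 26) and TUBAP2 (3 to 14). The library kit does not mark strand, so reads from genes on opposite strands cannot be told apart where they overlap. Every member's span, introns included, overlaps that of some gene on the opposite strand. These lengths are of whole gene spans, and the overlap of exons, on which reads were counted, was not computed. TUBA1A and TUBA1C overlap in this way over 345 bases. Longer overlaps are those of TUBA1C with ENSG00000258101 (31967 bases), TUBA4A with TUBA4B (18955 bases) and TUBB6 with AFG3L2 (15377 bases). TUBA1A and TUBA1B overlap TUBA1B-AS1 over 3799 and 3616 bases.

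The 10 genes had 71 transcripts in the files, of which 31 passed the filter. None was called by edgeR among 49809 transcripts tested, of which 4 were called (0.00803%). For most members a single transcript held nearly all reads. These were ENST00000336023 of TUBA1B (99.9%), ENST00000327892 of TUBB (100%), ENST00000333628 of TUBB2A (99.9%), ENST00000340384 of TUBB4B (99.4%), ENST00000315491 of TUBB3 (97.9%), ENST00000317702 of TUBB6 (91.5%) and ENST00000301071 of TUBA1A (91.1%). In TUBA1A that share was at least 91.8% in 5 libraries but 71.5% in shARMC5 replicate 2, where ENST00000550767 was given 45 reads (27.5%), against 0 in the other 5. For TUBB the files held 1 of the 7 transcripts that GENCODE 44 lists for it. The log2 fold change was 0.23 with a standard error of 0.06 for the transcript of TUBB6 (adjusted P = 0.644 from edgeR) and 0.11 with a standard error of 0.02 for that of TUBB4B (adjusted P = 0.430), values close to those of the genes.

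Reads of the other 3 members were spread over several transcripts. In TUBA1C, ENST00000541364 held 62.3% of reads, the retained-intron transcript ENST00000548470 held 23.9% and ENST00000549183 held 11.2%. The 12 bases in capitals at the start of TUBA1C are found in 2 of its 9 transcripts, which took 13.7% of its reads, and ENST00000541364 does not hold them. The same share was 74.5% for TUBA4A and 51.7% for TUBB2B, and at least 94.4% for each of the other 7 members. In TUBA4A, ENST00000248437 held 73.4% and ENST00000498660, whose coding sequence is not defined, held 22.6%. In TUBB2B all reads were on ENST00000259818 in shNT replicate 2 and shARMC5 replicates 2 and 3 and all on ENST00000473006 in the other 3 libraries. These transcripts have 1922 and 1923 bases, and the switch between them followed neither group.

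**Figure D4:**
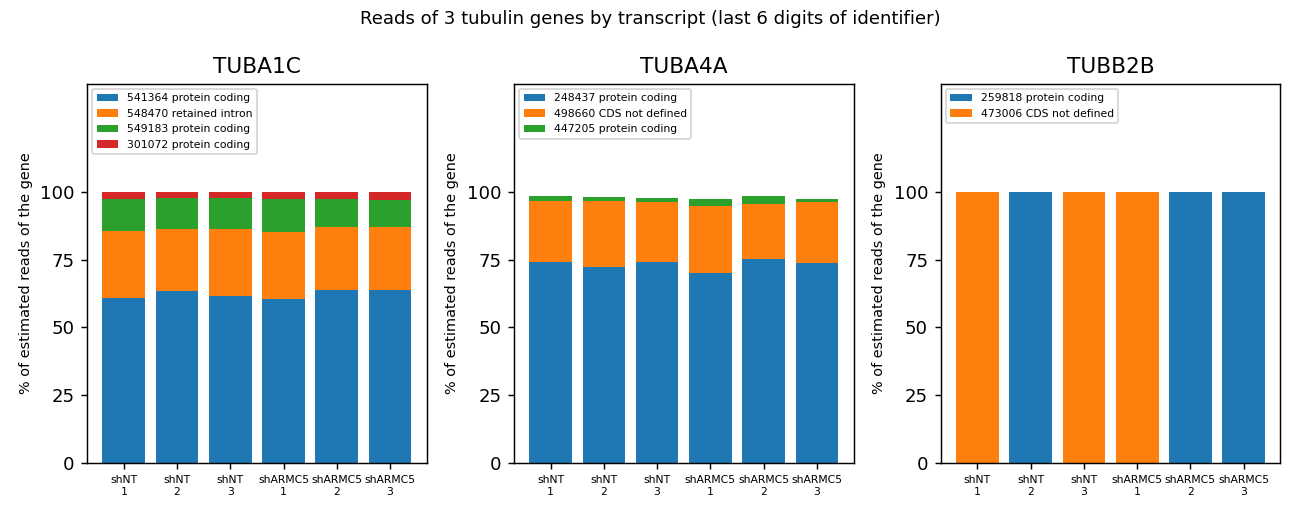
Share of each gene's estimated reads on its transcripts, in percent, for TUBA1C, TUBA4A and TUBB2B, with 1 bar per library. The split of TUBA1C and TUBA4A is alike in all 6 libraries, with 60.6% to 63.6% of TUBA1C on 1 transcript, whereas TUBB2B goes wholly to 1 of 2 transcripts of nearly equal length.

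Of 9 other alpha and beta tubulin genes, TUBA8 was the only gene that passed the filter, with 35 to 63 reads per library and a log2 fold change of 0.17 (adjusted P = 0.816 from edgeR), a value that was -0.10 without shARMC5 replicate 1, 0.03 without shNT replicate 1, 0.33 without shARMC5 replicate 2 and 0.32 without shNT replicate 3. TUBB8 had 4 to 11 reads and TUBAL3 0 to 8. TUBB1, TUBB4A and TUBA3D had at most 4 reads in any library, and TUBA3C, TUBA3E and TUBB8B had 0.

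New tubulin chains pass from prefoldin to the ring chaperonin TRiC (also CCT), and the cofactors TBCA to TBCE then assemble the dimer. All 21 genes listed for this path were tested, and edgeR called 2 higher, beside 4.44% of all genes tested. None was called lower by edgeR or by DESeq2, and the median log2 fold change was 0.06. At an unadjusted P value under 0.05 there were 5 higher and 0 lower, beside 9.78% and 8.28% of all genes. The 2 genes called by edgeR were subunits of TRiC. CCT8 had 422, 438 and 426 CPM in shNT and 443, 461 and 464 CPM in shARMC5 libraries (log2 fold change 0.09, standard error 0.03, adjusted P = 0.0733 from edgeR). CCT2 had 549.6, 574 and 568 CPM in shNT and 585, 606 and 605 CPM in shARMC5 libraries (log2 fold change 0.09, standard error 0.03, adjusted P = 0.0806). All 8 TRiC subunits had log2 fold changes from 0.03 to 0.09, and their values were above 0 in every other setting tried. For 5 of the 8 the groups did not overlap in CPM (2 of 8 in TPM), beside 23.4% and 16.3% of all genes. Both calls were lost in 8 of 15 alternatives, with adjusted P values up to 0.286 for CCT2 and 0.240 for CCT8. Among these were library size only, either length offset and unmatched transcripts kept. The others left out replicate 2 or 3 of shARMC5 or replicate 1 or 3 of shNT. In other alternatives calls were gained. CCT4 was called higher by DESeq2 without a length offset and by edgeR without shNT replicate 2, and TCP1 without shARMC5 replicate 1. With a replicate block CCT4, CCT6A and TCP1 were called as well, in a fit that called 972 of all genes higher. Values of the 6 prefoldin genes ranged from -0.03 to 0.26 and those of the 7 cofactor genes from -0.04 to 0.27. The highest prefoldin value, that of PFDN6 (standard error 1.16), rested on 0 reads in shNT replicate 3 and was -0.31 without that library, and the next, that of PFDN2, was 0.10. The highest cofactor value, that of TBCE (standard error 0.26), was 0.09 without shARMC5 replicate 3 and 0.47 without shARMC5 replicate 2.

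Of 12 genes of tubulin mRNA control, TTC5, SCAPER and 10 subunits of CCR4-NOT, edgeR called 0, beside 7.75% of all genes tested. At an unadjusted P value under 0.05 there were 1 higher and 2 lower, beside 9.78% of all genes higher and 8.28% lower. The median log2 fold change was -0.03 and 9 of 12 values were below 0. At the first step TTC5 had 16.8, 16.7 and 16.4 CPM in shNT and 16.3, 16.3 and 16.0 CPM in shARMC5 libraries (log2 fold change -0.04, standard error 0.07, adjusted P = 0.826 from edgeR). DESeq2 also called 0 of the 12, with and without a length offset. In 5 of the 15 alternatives 1 to 3 CCR4-NOT subunits were called. CNOT10 was called higher with a replicate block, with genes of at least 1 count kept and without shNT replicate 2. CNOT6 was called lower with the block and with library size only, and CNOT1 with the block and without shARMC5 replicate 1. Of all genes, 1766 were called with the block, 953 with library size only and 1537 with genes of at least 1 count kept, where more were tested. Without shNT replicate 2 the number was 1074, and without shARMC5 replicate 1 it was 883. Among the 14 genes of gamma, delta and epsilon tubulin and of the gamma-tubulin ring, which starts new microtubules, edgeR and DESeq2 called 0. At an unadjusted P value under 0.05 edgeR gave 0 higher and 2 lower, beside 9.78% and 8.28% of all genes. The median log2 fold change was -0.05, with values from -0.23 to 0.04. With the length offset the median was -0.02 in DESeq2 and -0.03 in edgeR.

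Among 27 tubulin modifying enzymes, 16 were tested and 1 was called, beside 7.75% of all genes tested. The median log2 fold change of the 16 was -0.05. It was -0.01 without shARMC5 replicate 2, -0.02 without shNT replicate 3, -0.08 without shARMC5 replicate 1, -0.07 without shNT replicate 2 and -0.09 with either length offset. At an unadjusted P value under 0.05 there were 0 higher and 4 lower, HDAC6, TTLL1, TTLL5 and TTLL7, beside 9.78% of all genes higher and 8.28% lower. Of 13 TTLL ligases 7 were tested, with 6 values below 0 and a median of -0.17, and for 3 of the 7 the groups did not overlap in CPM (2 of 7 in TPM), beside 23.4% and 16.3% of all genes. TTLL5, a ligase that adds glutamates to the alpha tubulin tail, had 50.7, 49.1 and 49.99 CPM in shNT and 46.1, 43.9 and 43.0 CPM in shARMC5 libraries, a log2 fold change of -0.17 with a standard error of 0.05 (adjusted P = 0.0388 from edgeR), while its TPM overlapped between the groups. Its call was lost with either length offset, where the value was -0.08, and on leaving out replicate 2 or 3 of shARMC5 (adjusted P = 0.143 and 0.129) or replicate 1 of shNT (adjusted P = 0.156). TTLL7 was called lower by DESeq2 with the length offset and TTLL3 without shNT replicate 2. Of 47 genes for proteins that bind, cap, cut or take apart microtubules, 41 were tested, 2 were called higher and 1 lower, beside 4.44% and 3.3% of all genes, and the median was 0.004, which turned to -0.010 with library size only and was 0.002 to 0.03 with a library left out. PRC1, which bundles the antiparallel microtubules of the late spindle, had 211, 214 and 213 CPM in shNT and 226, 227 and 227 CPM in shARMC5 libraries (log2 fold change 0.09, adjusted P = 0.0529 from edgeR). CAMSAP2, which binds minus ends, had 104.7, 96.5 and 99.9 CPM in shNT and 114, 112 and 103.6 CPM in shARMC5 libraries, where the groups overlapped (log2 fold change 0.13, adjusted P = 0.0838). TACC2 of the TACC family had 73.2, 70.2 and 66.6 CPM in shNT and 63.0, 60.3 and 56.1 CPM in shARMC5 libraries (log2 fold change -0.23, adjusted P = 0.0111). PRC1 was not called in 8 of 15 alternatives, which were library size only, both length offsets, where its value was 0.03, and the omission of any library but shNT replicate 2 (adjusted P = 0.110 to 0.167). CAMSAP2 was not called in 9 of 15, among them the omission of replicate 1 or 2 of shARMC5 or 2 or 3 of shNT (adjusted P = 0.213 to 0.273), and TACC2 in 1 of 15, edgeR with a length offset (adjusted P = 0.225). MAPRE1 and TACC3 were called higher with a replicate block, in a fit that called 972 of all genes higher. MAPT was called lower without shARMC5 replicate 3, in a fit that called 309 of all genes lower.

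**Figure D5:**
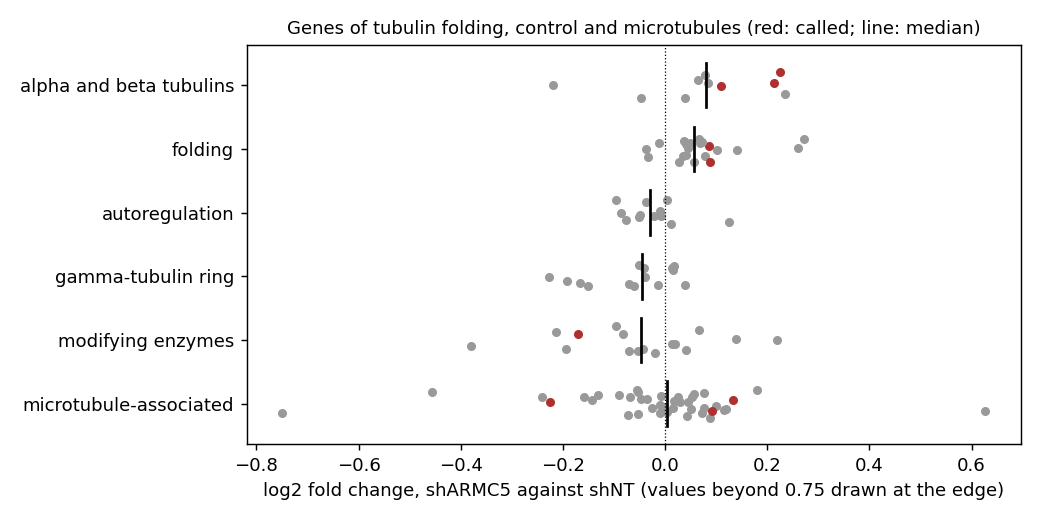
Log2 fold changes of the 10 tubulin genes and of the tested genes of 5 related lists, shARMC5 against shNT, with called genes in red and the median as a line. The medians are 0.08 for the tubulins, 0.06 for folding, -0.03 for autoregulation, -0.05 for the gamma-tubulin ring, -0.05 for modifying enzymes and 0.004 for microtubule-associated genes.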

How the data were processed

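Poly(A) RNA of 3 shARMC5 and 3 shNT libraries was sequenced. The authors trimmed reads (cutadapt 4.2) and ran salmon 1.9.0 with GC correction. The deposited files hold an expected count of reads and the TPM for each transcript, besides its length and effective length. The transcript set was not given in the sources used here. Of 177456 transcripts, 165533 matched GENCODE 44, and 11923 were left out.

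Expected counts were added up by gene and rounded. Genes reaching 10 counts in 3 or more libraries were tested with edgeR 4.0.16 (R 4.3.3, robust quasi-likelihood, TMM factors of 0.992 to 1.02, no covariate). The study used DESeq2, here an alternative (version 1.42.0). Deposited TPM were summed per gene, and the sums and ratio are given without a test. On simulated counts, 100% of 200 changed genes of 13737 (log2 size 1, at least 50 reads) were recovered, with 10.3% of calls false. Intervals rest on the spread between libraries and widen at low depth. The tubulin genes and gene lists were chosen with earlier results of these data known. The named genes are ARMC5, all members, at most 4 called genes each way per list with at least 1 CPM, the 3 leading pseudogenes, and transcripts with at least 10% of a member's reads. TTC5, the CCR4-NOT subunits, PFDN2, PFDN6, TBCE, HDAC6, TTLL1, TTLL3, TTLL7, the other listed tubulins and overlapping genes were named after their values were seen. So were MAPRE1, TACC3 and MAPT. Alternatives were DESeq2, length offsets, other scalings and filters, a replicate term, unmatched transcripts kept or added to the preceding gene, protein-coding transcripts or pseudogenes in the sums, and each library left out. Sequences came from GENCODE 44 transcripts. Tables used Python 3.11.15, pandas 2.3.3, numpy 2.4.6, Biopython 1.88 and matplotlib 3.10.9.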

Additional observations from a re-analysis of the deposited data

How the results depend on the processing

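Of all genes, 1064 were called, 676 at an adjusted P value under 0.05, 568 by DESeq2 with a length offset, 234 by edgeR with that offset, 532 with unmatched transcripts kept, and 536 to 1074 with a library left out. Deviations of same-numbered libraries correlated at -0.014, -0.006 and -0.022, none the best match of its number, and those of other pairs at -0.015 to 0.027. All these values, taken over all tested genes, lie near 0, so they cannot decide whether the numbers pair the libraries. With a replicate block 1766 genes were called, and the standard error of TUBB6 was 0.029, against 0.037 without the block. Of the tubulin genes, 5 were called with the replicate block and 5 by DESeq2 without an offset (TUBA1C and TUBB added both times), and 2 to 4 with a library left out. Adding the unmatched transcript listed next to TUBA1C, chosen after seeing the data, brought it to an adjusted P value of 0.0583. TUBB6 and TUBB4B kept their calls in all 15 alternatives, and no tubulin gene changed sign. ARMC5 stayed between -1.15 and -1.02. No tubulin transcript was called in any of 9 alternatives.

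With a library left out, the difference in summed alpha TPM was -19.3 (without shNT replicate 3) to 101.6, and -1.001 without shARMC5 replicate 1, that of the TUBA1B share -0.411 to 0.405 (0.126 without shNT replicate 2), that of the TUBA1C share -0.0405 to 0.684, and that of the TUBB3 share -0.0655 to 0.0926. The TUBB3 share differed by -0.0032 with CPM. The causes were not tested. Depth limits TUBA1A and TUBB2B, with 70 to 164 reads per library, and DESeq2 was not run on transcripts.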
